A study of Mus musculus with 6 samples.

Results

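Expression of 9 complement genes was followed in epididymal adipose tissue, the visceral fat pad of the mouse abdomen. The genes were taken by name: C1qa, C1qb, C1qc, C1ra, C2, C3, C4b, Cfb and Serping1. All 9 were among the 13116 protein-coding genes listed, and all 9 were among the 12847 genes tested. RNA of 3 HuRAKO mice (HuRflox/flox:AdipoQ-Cre+) was compared with that of 3 control mice (CTR, HuRflox/flox:AdipoQ-Cre-). Both groups were of the C57BL/6 strain, carried the floxed HuR alleles, and received a high-fat diet (HFD) for 16 weeks that began at 8 weeks of age. The Cre recombinase was driven by the adiponectin promoter, which is active in adipocytes, so macrophages, mesothelial cells, vessels and other stromal cells of the tissue still carried an intact HuR gene. Expression was given as FPKM, the fragments of a gene relative to its length and to all fragments of the library, so levels can be roughly compared between genes.

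Complement is a cascade of secreted proteins that marks microbes, antibody complexes and dying cells. C1q recognises the target and activates the proteases C1r and C1s, which cleave C4 and C2 into the classical C3 convertase, while factor B and factor D build the alternative one. Cleaved C3 coats the target, and C1 inhibitor stops C1r and C1s. Fat is an extrahepatic source of these proteins: factor D was first described there as adipsin, and tissue macrophages make C1q.

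One library stood apart. CTR replicate 3 lay at 48.3 on a first principal component that carried 41.1% of the variance of all tested genes, against -14.5 to -3.09 in the other 5 mice. It had the highest level of the 6 mice for all 9 complement genes, and for 27.1% of all genes tested. Results are therefore given with and without it. The labels are not checked by the targeted gene: transcripts of HuR (Elavl1) stood at 4.66, 5.24 and 5.63 FPKM in HuRAKO mice and at 3.93, 4.85 and 4.98 FPKM in CTR mice. HuRAKO over CTR was 1.19, 1.08 and 1.13 within replicate numbers (log2 fold change 0.15, limma adjusted p = 0.807). The study reported lower HuR mRNA by qPCR in adipose tissue of HuRAKO mice, which these values do not show. It also reported lower HuR protein, by western blot, in adipose tissue and in its isolated adipocytes. Reads from exons outside the floxed stretch and from cells without Cre can count toward the FPKM of HuR, and their part was not tested. HuRAKO and CTR stand below for libraries so labelled. Adiponectin (Adipoq), the defining adipocyte product, was at 1325 to 1625 FPKM in HuRAKO mice and at 1286 to 1631 FPKM in CTR mice. Over all genes, FPKM summed to 250270 to 264055 in a mouse, and sequencing depth is unknown.

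The 3 chains of C1q, which bind antibody and apoptotic cells, varied together between mice. C1qa (ENSMUSG00000036887.5, chromosome 4 from 136895917 to 136898803) was measured at 249, 177 and 298 FPKM in HuRAKO mice and at 249, 190.5 and 685 FPKM in CTR mice. C1qb (ENSMUSG00000036905.8, from 136880129 to 136886187) was at 238, 151 and 287 FPKM in HuRAKO mice and at 191, 161 and 501 FPKM in CTR mice. C1qc (ENSMUSG00000036896.5, from 136889804 to 136893065) was at 120.2, 86.0 and 150.3 FPKM in HuRAKO mice and at 109, 90.0 and 260.2 FPKM in CTR mice. The groups overlapped for each chain, replicate 2 was the lowest mouse of either genotype, and CTR replicate 3 was high. In bulk tissue, fewer cells of a type and less RNA per cell cannot be told apart.

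The log2 fold changes of HuRAKO over CTR mice, from limma on log2(FPKM + 1), were -0.43 for C1qa (standard error, SE, 0.48), -0.19 for C1qb (0.47) and -0.24 for C1qc (0.42), with adjusted p-values of 0.849, 0.934 and 0.91. Without CTR replicate 3 they were 0.11, 0.31 and 0.22, so the sign of each turned with 1 mouse (adjusted p 0.897, 0.735 and 0.793 from limma). None of these differences exceeded the spread between mice. The chains kept close proportions. C1qb over C1qc ran from 1.75 to 1.98 over the 6 mice, whereas C1qa over C1qb was 1.05, 1.18 and 1.04 in HuRAKO mice and 1.31, 1.19 and 1.37 in CTR mice. These ratios were picked after the values were seen and are a description.

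C1qb and C1qc lie side by side on chromosome 4 and had the closest profiles of the C1q chains, so their promoters are shown (RefSeq, GRCm38.p6, minus strand, 250 bases before the RefSeq start and 50 from it on). Capitals mark the PU.1 core GAGGAA, read on both strands, which is the binding core of a transcription factor of myeloid cells.
C1qb promoter, chr4:136886151-136886450: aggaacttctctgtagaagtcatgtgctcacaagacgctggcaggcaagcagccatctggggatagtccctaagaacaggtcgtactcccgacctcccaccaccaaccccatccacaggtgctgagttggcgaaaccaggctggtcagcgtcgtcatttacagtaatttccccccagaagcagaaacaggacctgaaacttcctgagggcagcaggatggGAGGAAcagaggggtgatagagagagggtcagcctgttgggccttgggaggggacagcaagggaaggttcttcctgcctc
C1qc promoter, chr4:136892865-136893164: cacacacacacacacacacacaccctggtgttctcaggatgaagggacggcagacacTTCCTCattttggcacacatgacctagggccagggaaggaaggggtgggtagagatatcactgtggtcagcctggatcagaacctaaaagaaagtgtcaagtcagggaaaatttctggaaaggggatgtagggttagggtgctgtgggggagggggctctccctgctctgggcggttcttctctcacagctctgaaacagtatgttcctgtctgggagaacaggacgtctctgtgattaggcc
The core began 30 bases upstream of the RefSeq start of C1qb and, on the other strand, 193 bases upstream of that of C1qc. The RefSeq start of C1qc lies 151 bases inside the gene as the deposited coordinates delimit it, so 201 bases of its window are within that gene, while that of C1qb lies 13 bases before its gene. Of 27025 promoters of the same length, 28.3% held it. Promoter sequence was at hand for 4 of the 9 genes, and a match describes letters, not a bound site.

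Averaged over the 6 mice, C3 was the most abundant of the 9 genes, followed by C4b, C1qa, Serping1, C1qb, Cfb, C1qc, C1ra and C2. This order is one of gene FPKM. Between neighbours from C4b to C1ra it did not hold in every mouse, while C1ra exceeded C2 in all 6 mice.

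**Figure D1:**
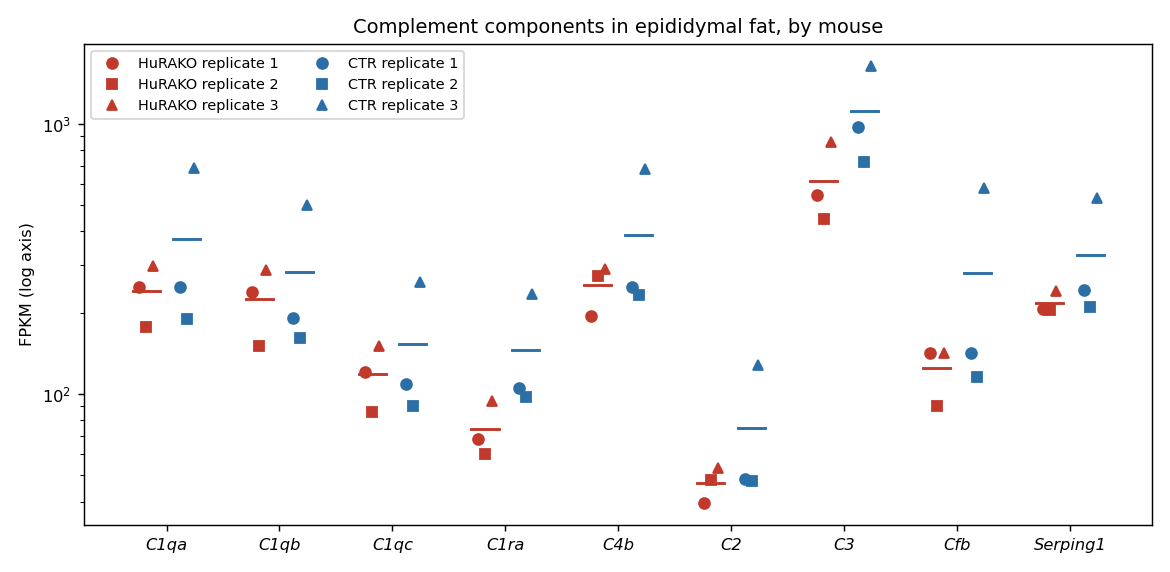
Level of each complement gene by mouse, in FPKM on a log axis. Red symbols are HuRAKO mice and blue symbols CTR mice, circles, squares and triangles are replicates 1, 2 and 3, and bars are group means. The triangle of CTR replicate 3 is the highest point of every gene, and the groups separate for C1ra alone.

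C1ra, the C1r protease that C1q activates, was the one gene of the 9 whose groups did not overlap. It was measured at 67.9, 60.2 and 94.0 FPKM in HuRAKO mice and at 106, 97.3 and 234 FPKM in CTR mice (ENSMUSG00000055172.10, chromosome 6 from 124512405 to 124523443). Its highest HuRAKO mouse lay just under its lowest CTR mouse. HuRAKO over CTR gave a log2 fold change of -0.87 (SE 0.36, limma adjusted p = 0.619). It thus passed the thresholds of the study, a fold over 1.5 with p under 0.05 before adjustment, but not the test over all genes. Of all genes tested, 1.35% passed these thresholds as lower and 1.27% as higher. Without CTR replicate 3 the log2 fold change was -0.47 (SE 0.21, limma adjusted p = 0.516), past neither threshold, while the groups still did not overlap. Over all genes tested, 7.68% were lower and 7.04% higher with no overlap in the 6 mice, and 14.3% lower and 14.8% higher without CTR replicate 3. Of the windows of 150 bases in the C1ra transcript, 26.3% also occur in its neighbour C1rb, so reads of these genes can be split between them.

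Within replicate numbers, HuRAKO over CTR was 0.643, 0.619 and 0.401 for C1ra. With the replicate number as a block, it passed the unadjusted thresholds (limma adjusted p = 0.416), also when CTR replicate 3 was left out (log2 fold change -0.66, limma adjusted p = 0.523). In that last fit HuRAKO replicate 3 has no CTR mouse of its number and does not enter the estimate. The fit thus rests on replicate numbers 1 and 2 alone. Relative to Serping1, the inhibitor of this protease, C1ra was at 0.329, 0.295 and 0.390 in HuRAKO mice and at 0.433, 0.465 and 0.441 in CTR mice. That ratio was also chosen after the values were seen, and CTR replicate 3 is not set apart in it.

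The window around the RefSeq start of C1ra is shown because the gene passed the unadjusted thresholds (GRCm38.p6, plus strand). That start lies 216 bases inside the gene as the deposited coordinates delimit it, so 266 of the 300 bases are within that gene and 34 before it. Capitals mark TTCNNNGAA, the gamma-activated site that STAT factors bind, and the PU.1 core on the other strand.
C1ra window, chr6:124512371-124512670: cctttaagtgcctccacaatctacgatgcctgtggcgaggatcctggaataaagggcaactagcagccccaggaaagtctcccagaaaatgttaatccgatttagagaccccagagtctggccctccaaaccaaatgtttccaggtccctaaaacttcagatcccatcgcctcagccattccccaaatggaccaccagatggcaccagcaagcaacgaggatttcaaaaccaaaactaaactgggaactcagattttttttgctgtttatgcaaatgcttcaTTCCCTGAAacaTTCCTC
The matches began 32 and 44 bases downstream of the RefSeq start. TTCNNNGAA stood in 8.47% of all promoters of that length. The core GAAANNGAA of the interferon-stimulated response element was found in 8.57% of all promoters and in none of the 4 read here.

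C4b and C2 are the substrates of C1s and together form the classical C3 convertase. C4b (ENSMUSG00000073418.4, chromosome 17 from 34728380 to 34743882) was at 195, 274 and 291 FPKM in HuRAKO mice and at 249.9, 233 and 683 FPKM in CTR mice. C2 (ENSMUSG00000024371.14, chromosome 17 from 34862604 to 34898265) was at 39.5, 48.2 and 53.3 FPKM in HuRAKO mice and at 48.4, 47.6 and 129 FPKM in CTR mice. Apart from CTR replicate 3, both genes lay in the same range in the genotypes. Log2 fold changes were -0.45 for C4b (SE 0.43) and -0.51 for C2 (0.39), with adjusted p-values of 0.829 and 0.793 from limma, and without CTR replicate 3 they were 0.05 and -0.04. C4b over C2 ran from 4.89 to 5.68 in the 6 mice, although their levels spanned a wider range. The gene Gm20547 overlaps C2 and Cfb, with a mean of 5.10 FPKM over the 6 mice, and shares 48.3% of the 150-base windows of C2 and 86.7% of those of Cfb. C4b shares 8.26% of its windows with C4a, for which no level is listed. Levels of C2, Cfb and C4b are to that extent uncertain.

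C3, the component on which all pathways converge and whose fragments opsonise the target, was the most abundant of the 9 genes. It was at 546, 444 and 858 FPKM in HuRAKO mice and at 977, 726 and 1643 FPKM in CTR mice (ENSMUSG00000024164.15, chromosome 17 from 57203970 to 57228136). HuRAKO replicate 3 lay above CTR replicate 2, so the groups overlapped by that pair of mice. C3 had a log2 fold change of -0.83 (SE 0.36, limma adjusted p = 0.634), past the fold and short of the p threshold, and one of -0.51 without CTR replicate 3 (SE 0.30, limma adjusted p = 0.612). Within replicate numbers, HuRAKO over CTR was 0.559, 0.612 and 0.522, the most even of the 9 genes. With the replicate number as a block, C3 passed the unadjusted thresholds (limma adjusted p = 0.404), and it did so without CTR replicate 3 (log2 fold change -0.77, limma adjusted p = 0.523). That last fit rests on replicate numbers 1 and 2 alone. It sets aside HuRAKO replicate 3, the mouse by which the groups overlapped.

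The C3 promoter is shown beside this result (RefSeq, GRCm38.p6, minus strand). Capitals mark TTGCNNAAT, a site for C/EBP factors of adipocytes and of the acute phase, and TATAAA, the letters of a TATA box.
C3 promoter, chr17:57228087-57228386: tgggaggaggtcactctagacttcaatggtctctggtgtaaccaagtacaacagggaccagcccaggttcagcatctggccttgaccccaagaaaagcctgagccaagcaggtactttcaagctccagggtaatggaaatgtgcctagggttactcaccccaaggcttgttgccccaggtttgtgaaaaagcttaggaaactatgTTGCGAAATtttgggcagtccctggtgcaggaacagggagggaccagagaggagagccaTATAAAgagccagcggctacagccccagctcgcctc
The C/EBP match began 45 bases upstream of the RefSeq start and the TATAAA 14 bases downstream of it. Since it lies past that start, the TATAAA is not shown to be its TATA box. The 2 motifs stood in 2.42% and 14.2% of all promoters of this length. Motifs were read on both strands, and their choice followed the values.

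**Figure D2:**
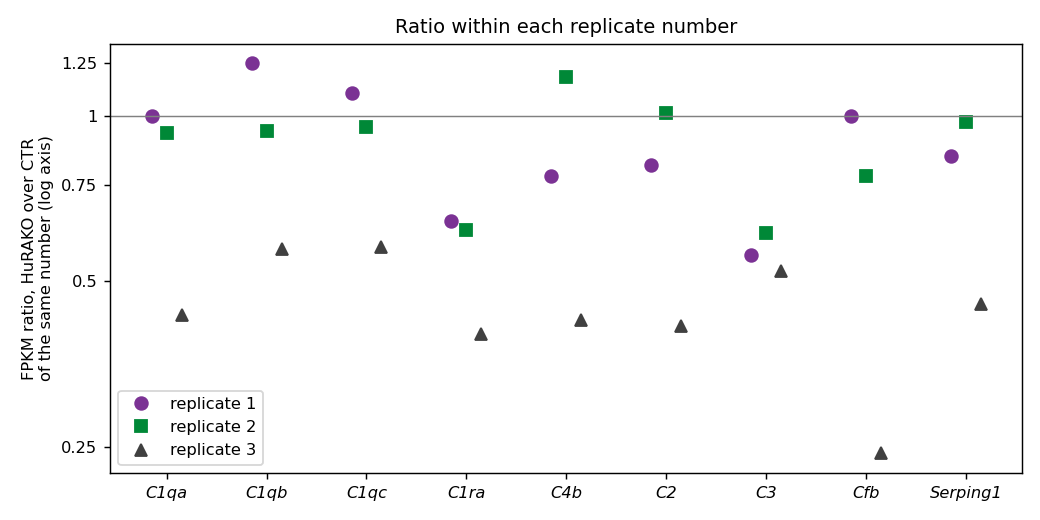
FPKM ratio of HuRAKO over CTR within each replicate number, on a log axis with a line at 1. C1ra lies between 0.401 and 0.643 and C3 between 0.522 and 0.612 in all 3 numbers, and replicate 3 is the lowest point of every gene.

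Cfb encodes factor B, the protease subunit of the alternative C3 convertase. It was at 142, 90.0 and 141 FPKM in HuRAKO mice and at 142, 116 and 581 FPKM in CTR mice (ENSMUSG00000090231.10, chromosome 17 from 34856374 to 34862518). Its level in CTR replicate 3 was 4.51 times the mean of the other CTR mice, the widest gap of the 9 genes, and C3 had the smallest with 1.93 times. Cfb had a log2 fold change of -0.80 (SE 0.61, limma adjusted p = 0.793), and -0.07 without CTR replicate 3. Serping1, which encodes C1 inhibitor, was at 206, 204 and 241 FPKM in HuRAKO mice and at 244, 209 and 531 FPKM in CTR mice (ENSMUSG00000023224.12, chromosome 2 from 84765387 to 84775444). HuRAKO mice lay in a narrow band at the low end of the CTR range, with 2 of them under every CTR mouse. Serping1 had a log2 fold change of -0.47 (SE 0.34, limma adjusted p = 0.787), and -0.06 without CTR replicate 3.

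Together, 1 of the 9 genes passed the unadjusted thresholds, as lower, against 1.35% of all genes tested, and 0 of 9 passed at an adjusted p under 0.05, against 0.00778% of all genes (1 gene). In limma, 1 of the 9 had an unadjusted p under 0.05, as did 1031 of the 12847 genes tested. The median log2 fold change of the 9 was -0.47, and that of all genes tested was -0.01. Without CTR replicate 3 the median was -0.04, with 5 genes below 0 and 4 above, and 0 of 9 passed, where 1.66% of all genes were lower and 1.57% higher. Groups did not overlap, with HuRAKO lower, for 4 of the 9 without CTR replicate 2 (10.6% of all genes lower, 11.7% higher) and for 3 without HuRAKO replicate 3 (11.2% lower, 11.7% higher). With the replicate block 2 of 9 passed as lower, C1ra and C3, against 1.53% of all genes lower and 1.46% higher. HuRAKO lay below CTR in every replicate number for 5 of the 9 genes, against 17.8% of all genes tested, and at or under 0.75 of CTR in every number for 2, against 2.29%. Of these 5, C1qa and Cfb were nearly level in number 1, with ratios of 0.9997 and 0.998. In number 3 all 9 genes lay below CTR, where CTR replicate 3 was their highest mouse, so the count of 5 rests partly on that mouse. The 9 genes made up 0.716%, 0.613% and 0.955% of the summed FPKM in HuRAKO mice and 0.877%, 0.735% and 2.07% in CTR mice.

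**Figure D3:**
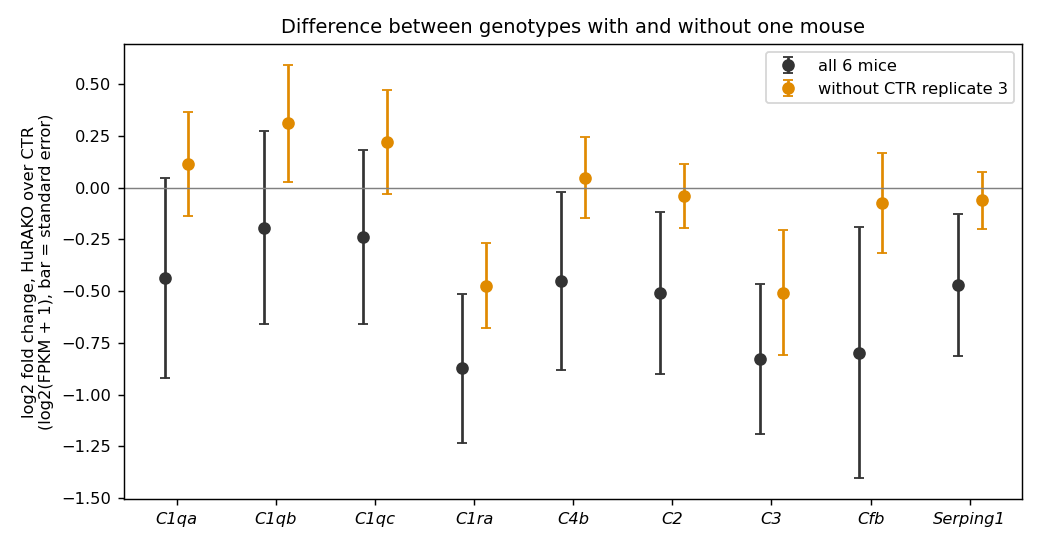
Log2 fold change of HuRAKO over CTR mice for each complement gene on the log2(FPKM + 1) scale, with its standard error. Dark points use all 6 mice and orange points leave out CTR replicate 3; all 9 dark points lie below 0, and of the orange points C1ra (-0.47) and C3 (-0.51) lie lowest.

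Marker genes of the cells that fat holds were read beside these values. All 16 macrophage markers were measured, none was listed at 0, and 15 of 16 were highest in CTR replicate 3. Their summed level was 1026 to 1751 FPKM in HuRAKO mice and 830 to 2496 FPKM in CTR mice. The median log2 fold change of the list was -0.11, and 0.32 without CTR replicate 3, with 0 and 2 genes past the thresholds. Lyz2, Ctss and Cd68, the most abundant of them, overlapped between groups with all mice. Cd68 was at 109.7, 71.8 and 178 FPKM in HuRAKO mice and at 62.7, 55.9 and 189 FPKM in CTR mice. Without CTR replicate 3, Ctss and Cd68 were higher in HuRAKO mice with no overlap, as were 14.8% of all genes tested. Lyz2 still overlapped. The mean log2 level of the C1q chains was compared with that of the 16 markers in each mouse. The difference was 2.38, 2.34 and 2.55 in HuRAKO mice and 2.72, 2.56 and 2.66 in CTR mice. It was lower in all 3 HuRAKO mice, by -0.22 on average (exact permutation test, two-sided, p = 0.1, the smallest that 3 against 3 can give, and 0.2 adjusted over 2 such comparisons), and by -0.21 without CTR replicate 3. With pseudocounts of 0.1 and 0.01 in place of 1, the groups overlapped in this measure. CTR replicate 3 did not stand apart in this measure.

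Lipid-associated macrophage markers went the other way from C1ra and C3. All 7 were above 0 in log2 fold change, with a median of 0.85, and 4 passed the unadjusted thresholds as higher, among them Gpnmb at 44.5, 14.6 and 88.2 FPKM in HuRAKO mice and at 6.28, 8.91 and 9.98 FPKM in CTR mice. The median was 1.27 without CTR replicate 3, with the count again 4. Mesothelial markers, of the cell layer that covers the fat pad, were lower: all 11 had a log2 fold change below 0, with a median of -0.92, and 8 passed the unadjusted thresholds. The median was -0.68 without CTR replicate 3, with 7 past. Their summed level was 141 to 209 FPKM in HuRAKO mice and 252 to 417 FPKM in CTR mice, with none at 0. Upk3b, a membrane protein of mesothelium, was at 33.7, 41.3 and 45.4 FPKM in HuRAKO mice and at 60.2, 71.7 and 95.6 FPKM in CTR mice.

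C3 was set against the 11 mesothelial markers in the same way. Its log2 level exceeded their mean by 5.77, 5.10 and 5.95 in HuRAKO mice and by 5.82, 5.07 and 5.90 in CTR mice. Mean and SD were 5.61 ± 0.45 in HuRAKO mice and 5.60 ± 0.46 in CTR mice (difference 0.01, exact permutation test, two-sided, p = 1, n = 3 each). Without CTR replicate 3 the difference was 0.16. The part of mesothelial cells in the level of C3 was not tested.

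Of the lists read, interferon-stimulated genes set CTR replicate 3 apart most. Of 16 such genes 15 were highest in that mouse, and their summed level was 196 to 226 FPKM in HuRAKO mice and 169 to 1593 FPKM in CTR mice. All 16 had a log2 fold change below 0, with a median of -0.94 and 0 past the thresholds, and the median was -0.23 without CTR replicate 3. Gbp2, a guanylate-binding protein, was at 49.7, 38.8 and 51.2 FPKM in HuRAKO mice and at 31.9, 41.8 and 361 FPKM in CTR mice. Isg15, a ubiquitin-like protein, was also raised in CTR replicate 2, at 10.4, 7.75 and 12.4 FPKM in HuRAKO mice and 10.4, 45.5 and 159.5 FPKM in CTR mice. None of the 9 complement genes was higher in CTR replicate 2 than in CTR replicate 1. Genes of the acute phase and of NF-kB had a median log2 fold change of -0.42, and 0.04 without CTR replicate 3, with 7 of 10 highest in it. Of these 10, 1 passed the unadjusted thresholds as lower with all mice, and 1 as higher and 1 as lower without CTR replicate 3. The part of interferon in these levels was not tested.

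**Figure D4:**
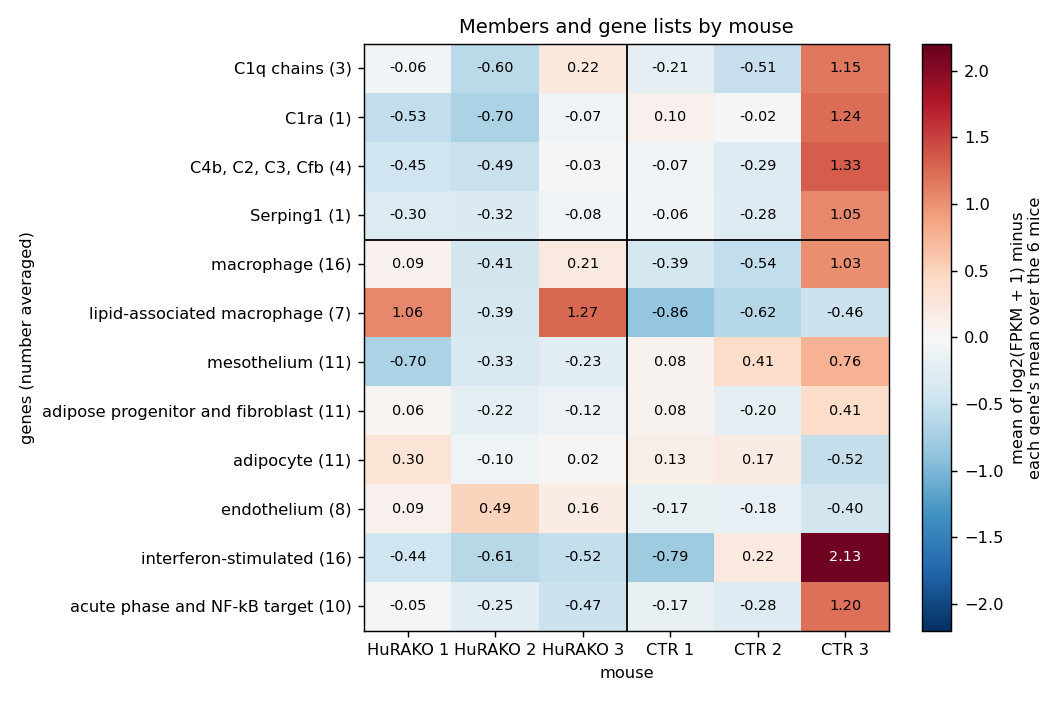
Mean of log2(FPKM + 1) minus the mean of each gene over the 6 mice, for groups of complement genes (above the line) and for marker and pathway lists (below it), by mouse. CTR replicate 3 is high for every complement group (1.05 to 1.33), for macrophage markers (1.03) and for interferon-stimulated genes (2.13), and low for adipocyte markers (-0.52).

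The remaining cell types were read in the same way. For fibroblast and progenitor markers the median log2 fold change was -0.28, and -0.05 without CTR replicate 3, with 0 of 11 past the thresholds in either fit. Adipocyte markers had one of 0.05, and -0.14 without it, with 9 of 11 above 0. Of the 11, 1 passed the thresholds as higher with all mice, and 1 as higher and 1 as lower without CTR replicate 3, with a summed level of 5169 to 5831 FPKM in HuRAKO mice and 4146 to 5965 FPKM in CTR mice. All 8 endothelial markers were above 0 (median 0.49, with 3 past the thresholds as higher, and 0.44 with 2 past them without CTR replicate 3). The 3 neutrophil markers measured summed to at most 23.7 FPKM in HuRAKO mice and 31.3 FPKM in CTR mice, and B and T cell markers to at most 16.9 FPKM in HuRAKO mice and 13.5 FPKM in CTR mice. Albumin (Alb), made by the liver, was at 2.07 to 3.61 FPKM in HuRAKO mice and 2.89 to 9.60 FPKM in CTR mice, far below C3. Like C1ra, it passed the unadjusted thresholds as lower (log2 fold change -0.92, limma adjusted p = 0.619), and it did so without CTR replicate 3 (-1.35, limma adjusted p = 0.283). Epididymal markers reached at most 1.87 FPKM in HuRAKO mice and 1.39 FPKM in CTR mice.

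The wider complement system was read from a list of 45 genes, of which 31 were measured and 30 tested, as 31 entries since Itgam is listed under a pair of identifiers. Of the 31 entries, 4 passed the unadjusted thresholds as higher and 2 as lower, against 1.27% and 1.35% of all genes. The median log2 fold change was -0.12, and 0.02 without CTR replicate 3, where 4 passed in all. The smallest adjusted p was 0.379 from limma.

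Recognition proteins and their proteases lay on the same side as C1ra, with 7 of 7 below 0, a median of -0.63 and 6 of 7 highest in CTR replicate 3. C1rb, the second C1r gene, was at 10.2, 7.15 and 14.98 FPKM in HuRAKO mice and at 18.4, 15.1 and 39.6 FPKM in CTR mice. Its groups did not overlap, and it passed the unadjusted thresholds (log2 fold change -1.04, SE 0.40, limma adjusted p = 0.599), but not without CTR replicate 3 (-0.64). C1s1, the C1s protease that cleaves C4 and C2, was at 148, 133 and 182 FPKM in HuRAKO mice and at 210.4, 179 and 353 FPKM in CTR mice. The groups overlapped by 1 mouse, HuRAKO replicate 3, and the log2 fold change was -0.63 (limma adjusted p = 0.628). C1s2, at 1.35 to 2.39 FPKM in HuRAKO mice and 2.45 to 6.56 FPKM in CTR mice, did not overlap and missed the p threshold. Fcna, a ficolin of the lectin pathway, was at 71.9, 76.1 and 139 FPKM in HuRAKO mice and at 110.0, 102 and 281 FPKM in CTR mice. With the replicate block, C1rb, C1s1, C1s2 and Fcna passed the unadjusted thresholds as lower. With the block and without CTR replicate 3, a fit that rests on replicate numbers 1 and 2, C1rb alone of them did (log2 fold change -0.89). In that fit C1s1 (-0.47), C1s2 (-0.44) and Fcna (-0.51) fell short of the fold. The median of these 7 genes was -0.32 without CTR replicate 3, with 0 past.

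Factor D (Cfd, adipsin), the serine protease that cleaves factor B, exceeded all 9 genes. It was at 2212, 4042 and 3039 FPKM in HuRAKO mice and at 3481, 3697 and 2810.4 FPKM in CTR mice. Its groups overlapped and CTR replicate 3 was the lowest CTR mouse, so adipsin did not follow the 9 genes there (log2 fold change -0.14, SE 0.24, limma adjusted p = 0.908). Properdin (Cfp), which stabilises the alternative convertase, was at 45.8, 49.2 and 55.9 FPKM in HuRAKO mice and at 56.6, 43.0 and 158 FPKM in CTR mice. Among terminal components, which form the membrane attack complex, C6 was at 7.92, 14.4 and 7.72 FPKM in HuRAKO mice and at 16.0, 18.5 and 24.1 FPKM in CTR mice. C6 did not overlap and passed the unadjusted thresholds with all mice (log2 fold change -0.93, limma adjusted p = 0.465) and without CTR replicate 3 (-0.78). C7 was highest in HuRAKO replicate 2, at 33.6, 92.8 and 27.1 FPKM in HuRAKO mice and 26.2, 54.6 and 33.4 FPKM in CTR mice. C8g, which encodes a chain of C8, was at 1.62, 1.31 and 0.841 FPKM in HuRAKO mice and at 1.39, 1.44 and 0.858 FPKM in CTR mice, and its groups overlapped.

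Of the 9 inhibitors tested, 2 passed the unadjusted thresholds as higher and 0 as lower. Cd59a, a lipid-anchored inhibitor of the membrane attack complex, was at 41.5, 35.8 and 31.2 FPKM in HuRAKO mice and at 24.7, 24.2 and 19.5 FPKM in CTR mice. Cd59b, its second copy, was at 6.51, 3.24 and 7.48 FPKM in HuRAKO mice and at 3.13, 3.10 and 2.42 FPKM in CTR mice. Neither overlapped, and their log2 fold changes were 0.64 (SE 0.15) and 0.74 (0.27), with adjusted p-values of 0.398 and 0.576 from limma. Without CTR replicate 3 they were 0.54 and 0.65, and neither passed both thresholds. Clusterin (Clu), a secreted inhibitor, was at 39.7, 45.4 and 42.0 FPKM in HuRAKO mice and at 51.9, 54.0 and 89.1 FPKM in CTR mice, with no overlap and a fold under 1.5. The median log2 fold change of the 9 inhibitors was 0.03, and 0.10 without CTR replicate 3.

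Of the receptors, 2 passed as higher. Cd93, a surface protein of endothelial and myeloid cells once described as a C1q receptor, was at 32.7, 35.3 and 42.2 FPKM in HuRAKO mice and at 22.1, 20.2 and 25.3 FPKM in CTR mice. Itgax, the CD11c subunit of a receptor for cleaved C3, was at 10.3, 3.96 and 15.1 FPKM in HuRAKO mice and at 2.40, 1.77 and 2.96 FPKM in CTR mice. Neither overlapped, and the log2 fold changes were 0.68 (SE 0.14) for Cd93 and 1.53 (0.42) for Itgax, with adjusted p-values of 0.379 and 0.461 from limma. Both passed the unadjusted thresholds without CTR replicate 3, as did Itgb2, the partner chain of Itgax, which was at 40.6, 21.1 and 49.0 FPKM in HuRAKO mice and at 21.0, 14.3 and 50.1 FPKM in CTR mice. Calr, a chaperone that also binds C1q, was the most abundant of the receptors at 121 to 143 FPKM in HuRAKO mice and 112 to 137 FPKM in CTR mice. Itgam, the CD11b subunit, is listed under a pair of identifiers at overlapping positions, between which its reads can be split, and no direction is given.

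**Figure D5:**
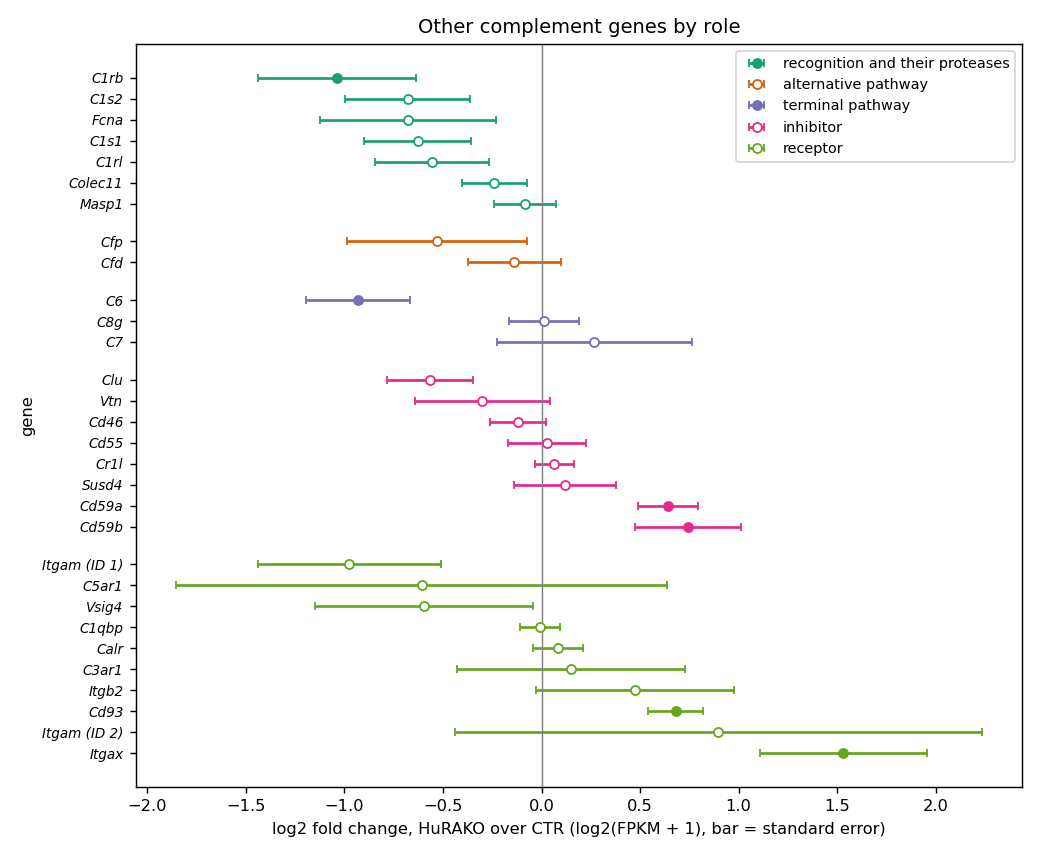
Log2 fold change of HuRAKO over CTR mice with its standard error for 30 of the 31 tested entries of other complement genes, in 5 roles, on the log2(FPKM + 1) scale. Filled points passed a fold over 1.5 with p under 0.05 before adjustment: C1rb and C6 lie below 0, and Cd59a, Cd59b, Cd93 and Itgax above it.

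Transcripts gave a further reading of the same libraries. The 9 genes had 19 listed transcripts, and 0 passed the unadjusted thresholds, where 2.28% of 23233 transcripts were lower and 2.31% higher. C2-204 alone had a limma p under 0.05 before adjustment, with a fold under 1.5. With the replicate block 5 passed, all as lower, against 2.45% lower and 2.58% higher: C1ra-201, C3-201, C3-204, Cfb-204 and Serping1-202. C1ra has 1 listed transcript with the same FPKM as the gene, and in the transcript fit it narrowly missed the p threshold. C3-204 was at 2.13, 2.15 and 7.01 FPKM in HuRAKO mice and at 7.85, 5.65 and 13.3 FPKM in CTR mice, beside C3-201 at 444 to 856 FPKM in HuRAKO mice and 724 to 1643 FPKM in CTR mice. The 7 transcripts of Cfb traded places between mice: Cfb-206 was at 39.9, 34.8 and 1.64 FPKM in HuRAKO mice and at 50.7, 67.5 and 301 FPKM in CTR mice. Cfb-201 was at 20.3, 34.4 and 88.8 FPKM in HuRAKO mice and at 21.3, 6.25 and 213 FPKM in CTR mice. These isoforms lie in 1 gene and can share reads, so their single values are uncertain, that of Cfb-204 included. C1qc-201 was listed at 191, 137 and 239 FPKM in HuRAKO mice and 174, 144 and 415 FPKM in CTR mice, above the gene value in every mouse. C2-201, C4b-201 and Serping1-201 also lay above their gene values. Serping1-201 averaged 316 FPKM over the mice and C1qa-201 308 FPKM, where the genes averaged 273 and 308 FPKM. Orders and ratios of levels between genes thus depend on which values are read.

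The genes whose profile over the 6 mice was most like each of the 9 were taken by the root mean square difference of centred log2(FPKM + 1), over all genes tested. Pairs of complement genes came first in several cases: C1qb with C1qc (0.07) and C2 with C4b (0.08). For C3 the closest were C1rb (0.15), C1ra (0.15) and Ube2l6 (0.18), and for C1ra they were Timd4 (0.13), C1rb (0.14) and Cxadr (0.14). C1qa lay nearest to Hpse (0.09), Lacc1 (0.10) and Csf3r (0.12), and C1qb to Cybb (0.11) and P2ry6 (0.11) after C1qc. C1qc lay nearest to P2rx7 (0.07), and Pstpip1 (0.11) followed C1qb. C3 had the most distant first match of the 9 genes. For Cfb the closest were Serpina3i (0.13), Lgals3bp (0.20) and Prf1 (0.20). Serping1 had the closest single match, Agtrap (0.06), before Ctsh (0.07) and Slc2a6 (0.08). C2 was followed by Serping1 (0.12) and Cd209b (0.13), and C4b by Osm (0.14) and Cd209b (0.14). The genes themselves varied by 0.48 to 0.86 on this measure, and with 6 mice of which 1 stood apart, likeness rests largely on CTR replicate 3.

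Neighbours in the genome did not all share the rise in CTR replicate 3. C4b, Cfb and C2 lie within one stretch of the major histocompatibility complex and were at 2.68 to 4.51 times the mean of the other CTR mice, while 9 other tested genes within 50 kb of them, such as Ehmt2 and Tnxb, were at 0.729 to 1.55 times. The C1r and C1s genes stand in a cluster on chromosome 6, in which C1ra, C1rb, C1rl, C1s1 and C1s2 were at 1.76 to 2.47 times and the flanking Lpcat3 and Clstn3 at 0.783 and 0.442 times. Near C3, at 1.93 times, Tnfsf14 was at 2.04 times, above C3 itself, although with a mean of 0.814 FPKM, and Gpr108 and Trip10 were at 1.10 and 1.02 times. Near Serping1, Ube2l6 was at 1.80 times, the highest of its 4 tested neighbours, and Serping1 itself at 2.34 times. Ephb2, beside the C1q genes, was at 0.528 times, where the C1q chains were at 2.61 to 3.12 times.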

How the data were processed

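RNA-seq of epididymal adipose tissue from 3 HuRAKO and 3 CTR mice was used, grouped by the genotype in their labels. The authors aligned reads to GRCm38 with Bowtie 0.12.2, per the submitters' processing notes, and deposited FPKM per gene and per transcript. The program that made the FPKM is not given in the sources used here, and the library kit differs between the methods and the labels. All 6 columns of each table were used, and 0 were left out. Since depth is unknown, precision was judged by how far the mice of a group differed.

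Tests used log2(FPKM + 1), on which a change in a low gene appears too small. The 12847 genes and 23233 transcripts that averaged 0.5 FPKM or more were tested with limma 3.58.1 in R 4.3.3, two-sided, with Benjamini-Hochberg adjustment over all of them. The thresholds of the study (fold over 1.5, p under 0.05 before adjustment) were read from that fit. The limma script was tested on simulated data. Single values were compared by exact permutation of the mice.

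The 9 genes, the gene lists and the tests were chosen with earlier results of these data known. All 9 genes are named. Of the other complement genes, those past the thresholds and the 3 most abundant of each role are named, and of marker lists at most the 3 most abundant. Of the other complement genes, 1 is not reported here, although it counts toward the totals of its list. Further genes named beyond this rule (C1s2, Itgam, Gm20547 and genes near the loci) were added after their values were seen.

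Both groups are numbered 1 to 3 in the labels, with no word on what a number means. Over genes, deviations from the group means had r = 0.101, 0.175 and 0.220 between mice of equal number. All exceed the limit of 0.1 for pairing, although CTR replicate 1 correlated as well with HuRAKO replicate 2 (r = 0.106). Blocked values are given where they change a call.

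Results were recomputed with another pseudocount, filter, scaling or variance model, with the replicate block, without each mouse and from sums of transcripts. The replicate block without CTR replicate 3 was added after the data were seen. Promoters came from RefSeq (GRCm38.p6), and shared windows were counted in GENCODE M21 transcripts. Python 3.11.15 with numpy 2.4.6, pandas 2.3.3 and matplotlib 3.10.9 was used.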

Additional observations from a re-analysis of the deposited data

How the results depend on the processing

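Of the 9 genes, 1 passed the unadjusted thresholds, and the count was 0 with pseudocounts of 0.1 and 0.01, FPKM rescaled to a common sum, no moderation, array weights or sums of transcripts, where C1ra was past the fold but not the p threshold, and 0 to 2 when a mouse was left out. It was 2 with the replicate block, and 2 with the block and without CTR replicate 3, a fit added after the data were seen. Their transcripts past the thresholds numbered 1 with either pseudocount, 5 with the replicate block, 4 with the block and without CTR replicate 3, and 0 to 5 with a mouse left out, against 0. Other complement genes past them numbered 6, and 3 to 10 with a mouse left out (10 without CTR replicate 2, 3 without HuRAKO replicate 1). Shares past the thresholds over all genes or transcripts are given above for the first and the blocked fit of all 6 mice, and for genes without CTR replicate 3. The other counts past the thresholds, those of the block without CTR replicate 3 included, have no such share beside them and are a description. Genes of the 9 with no overlap numbered 1 to 4 with a mouse left out (4 without CTR replicate 2, 3 without HuRAKO replicate 3), read against more genes with no overlap in these smaller groups (10.6% lower and 11.7% higher, 11.2% lower and 11.7% higher). The count at an adjusted p under 0.05 was 0 in all 18 alternatives. The median of the 9 ran from -0.75 to -0.04 and kept its sign. C1q relative to macrophage markers stayed below 0 (-0.29 to -0.18), but the groups overlapped with pseudocounts of 0.1 and 0.01 (exact permutation p = 0.2 and 0.3), and C3 relative to mesothelial markers went from -0.26 to 0.26 with a mouse left out. Signs turned for C1qa (0.11), C1qb (0.31), C1qc (0.22) and C4b (0.048) without CTR replicate 3, for C1qb (0.071) without HuRAKO replicate 2, for C1qb (0.16) and C1qc (0.086) with array weights, and for C1qb (0.11) and C1qc (0.035) with the block and without CTR replicate 3. With a mouse left out, the ranges reached down to -0.81 for C1qa, -0.51 for C1qb, -0.54 for C1qc and -0.73 for C4b. With all mice, the replicate block changed no call of the 9 genes other than that of C3. Without CTR replicate 3 it brought C1ra and C3 past the thresholds. In that fit HuRAKO replicate 3 stood alone in its block, so the estimates of all 9 genes rested on replicate numbers 1 and 2. The cause of the other changes was not tested. With 3 mice a group and no counts, depth and small differences cannot be resolved.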
